A study of Rattus norvegicus with 8 samples.

Results

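The genes described here encode the receptors that sense glutamate at excitatory synapses and the scaffold proteins that hold those receptors under the release site. They were chosen by symbol: every probe set annotated to exactly 1 gene whose symbol named an AMPA, kainate, NMDA, delta or metabotropic glutamate receptor subunit, or a member of the Dlg, Dlgap, Shank or Homer scaffold families. Of 40 symbols searched, 32 were found, among 18166 genes tested, and each was read by 1 probe set. The other 8 are not analysed here, among them the AMPA receptor subunits Gria1 and Gria2. Gria2 was found only on probe sets annotated to several genes. The rule reads symbols and, for repeated symbols, the mean level, and no difference between the groups. The list itself was chosen with earlier results of these data known.

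Messenger RNA was measured in thoracic spinal cord of male Long Evans rats of about 175 days, weighing 400 g at the start, on 8 Affymetrix Rat Gene 2.0 ST arrays. In one group (SCI, 4 arrays) the rats had a thoracic spinal cord injury, and in the other (sham, 4 arrays) a laminectomy without injury. Both groups ate chow with 17% fat, then, after 4 weeks of recovery, a diet with 40% fat. Every difference below is therefore between injured and sham cord on the same diet. A total of 8 weeks is also given, without saying whether it counts the diet or the whole study. The piece of cord is given as segments 10 to 11 in one label and 11 to 12 in another, and its distance from the lesion is unknown here. The labels speak of 10 rats and do not tie an array to a numbered animal, so the p-values measure the spread between these samples, which may be technical in part. Each array is called by its group and its place in the sample list (SCI 1 to SCI 4, sham 1 to sham 4), and the places pair nothing.

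Glutamate carries most fast excitation in the spinal cord, from primary afferents and descending axons to interneurons and motor neurons. AMPA and kainate receptors are cation channels that open directly on binding glutamate, while NMDA receptors also need glycine or D-serine and relief of a magnesium block, and pass calcium. Metabotropic receptors act through G proteins, and some of them, Grm3 among them, are also made by glia. Under the membrane, Dlg proteins bind receptor tails, Dlgap proteins link Dlg to Shank, and Shank and Homer tie the complex to actin and to calcium stores.

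The windows around the start sites of the members were read to see what they share in sequence. The RefSeq promoter table (build GRCr8) held 22 windows of 21 of the 32 members, each running from 250 bases before to 50 bases after the start site. Their median GC content was 57.7%, beside 51.7% over 33469 windows of all genes. A few windows are printed below, on the coding strand, 5′ to 3′, with the matched motif in capitals: those of Grin1 and Dlg1, the lowered members with a GC box (GGGCGG), and that of Grin2d, the window with an NRF-1 core (GCGCANGCG).
Grin1 (chr3:28528705-28529004, minus strand): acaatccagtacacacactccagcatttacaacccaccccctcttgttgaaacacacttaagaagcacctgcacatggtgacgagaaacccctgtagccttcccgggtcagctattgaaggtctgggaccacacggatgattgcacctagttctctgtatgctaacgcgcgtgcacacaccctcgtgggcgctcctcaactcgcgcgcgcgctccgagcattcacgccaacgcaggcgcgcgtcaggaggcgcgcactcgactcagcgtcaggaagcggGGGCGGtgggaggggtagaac
Dlg1 (chr11:82607748-82608047, minus strand): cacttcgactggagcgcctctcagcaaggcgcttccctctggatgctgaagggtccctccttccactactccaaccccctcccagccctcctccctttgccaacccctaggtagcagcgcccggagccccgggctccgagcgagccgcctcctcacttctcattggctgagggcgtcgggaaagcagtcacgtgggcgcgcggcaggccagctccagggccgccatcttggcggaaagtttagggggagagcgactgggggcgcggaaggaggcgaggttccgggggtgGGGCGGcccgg
Grin2d (chr1:105481187-105481486, minus strand): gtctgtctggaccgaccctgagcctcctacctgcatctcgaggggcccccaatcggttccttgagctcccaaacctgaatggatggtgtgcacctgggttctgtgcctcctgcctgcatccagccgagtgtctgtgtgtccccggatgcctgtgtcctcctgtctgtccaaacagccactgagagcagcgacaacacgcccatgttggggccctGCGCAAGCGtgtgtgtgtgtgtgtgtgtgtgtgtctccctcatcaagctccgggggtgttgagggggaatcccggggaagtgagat
Counted from the start site, the capitals begin at position 30 in Grin1, 40 in Dlg1 and -36, before the start, in Grin2d. Searched on both strands, the GC box was in 5 of 22 member windows (22.7%), the others being those of Grik3, Grik5 and Dlgap4, beside 33.1% of all windows. The NRF-1 core was in 1 of 22 (4.55%) beside 5.80% of all. The cAMP response element TGACGTCA (1.83% of all windows) and the REST half-sites TCAGCACC (1.48%) and GGACAGCG (1.21%) were in 0 of 22. Among the 8 windows of members that fell in SCI, 2 held a GC box, and among the 14 of the other members 3 did. These are matches of letters in a fixed window and say nothing of binding.

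The arrays had medians of 3.73 to 3.81 on the log2 scale. The first principal component (45.6% of the variance) separated SCI from sham. The second (11.2%) did not follow the groups and set SCI 3, sham 1 and sham 2 apart from the other 5 arrays, so counts are given with and without those 3 arrays. The running number in the sample titles follows the groups, so the order of the arrays and the injury cannot be told apart. Of the 18166 genes, limma at an adjusted p under 0.05 called 1282 lower in SCI (7.06%) and 1290 higher (7.10%), and the median difference was -0.01.

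In injured cord, the AMPA receptor subunits measured, 3 NMDA and 2 kainate receptor subunits, the metabotropic receptors Grm3 and Grm5, Shank1 and the whole Dlg scaffold family lost signal, and no receptor or scaffold gene gained it past the test. Of the 32 members, 14 passed the limma test as lower in SCI and 0 as higher, beside the 7.06% of all genes called lower and 7.10% called higher. At an unadjusted limma p under 0.05, 19 members were lower and 0 higher, beside 4850 of the 18166 genes in either direction. The difference was negative in 27 of 32 and had a median of -0.35 on the log2 scale, with a range from -0.74 (Grm3) to 0.22 (Homer3). The 4 SCI arrays lay wholly below the 4 sham arrays in 14 members and wholly above in 0, beside 10.9% and 9.36% of all genes. Those 14 are not the 14 that passed the test: Grik1 and Grin2b passed with overlapping groups, while Dlgap1 and Dlgap2 were apart without passing.

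The calls were not evenly stable. Leaving out SCI 3, sham 1 and sham 2 kept 3 SCI and 2 sham arrays. Limma then called 0 of the 32 lower, beside 1.56% of all genes. At an unadjusted limma p under 0.05, 15 members were lower and 1 higher, but the same count over all genes was not made for this fit. In that fit 847 genes were called at all, the member median was -0.29, and the 14 had differences of -0.75 to -0.31 with adjusted p-values from 0.0568 (Grm3) to 0.239 (Grm5). When 1 array at a time was left out, 9 of the 14 passed in all 8 fits, and Grik1, Grin2b, Grm5, Dlg1 and Dlg4 did not. Removing SCI 2 alone left 9 members called, all lower, and 4.29% of all genes called lower, beside 7.06% with all arrays. The direction of all 14 was negative in every fit run. RNA came from whole tissue, and markers of other cell types also shifted (below). Fewer neurons, less RNA per neuron and a larger share of RNA from other cells therefore cannot be told apart.

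**Figure D1:**
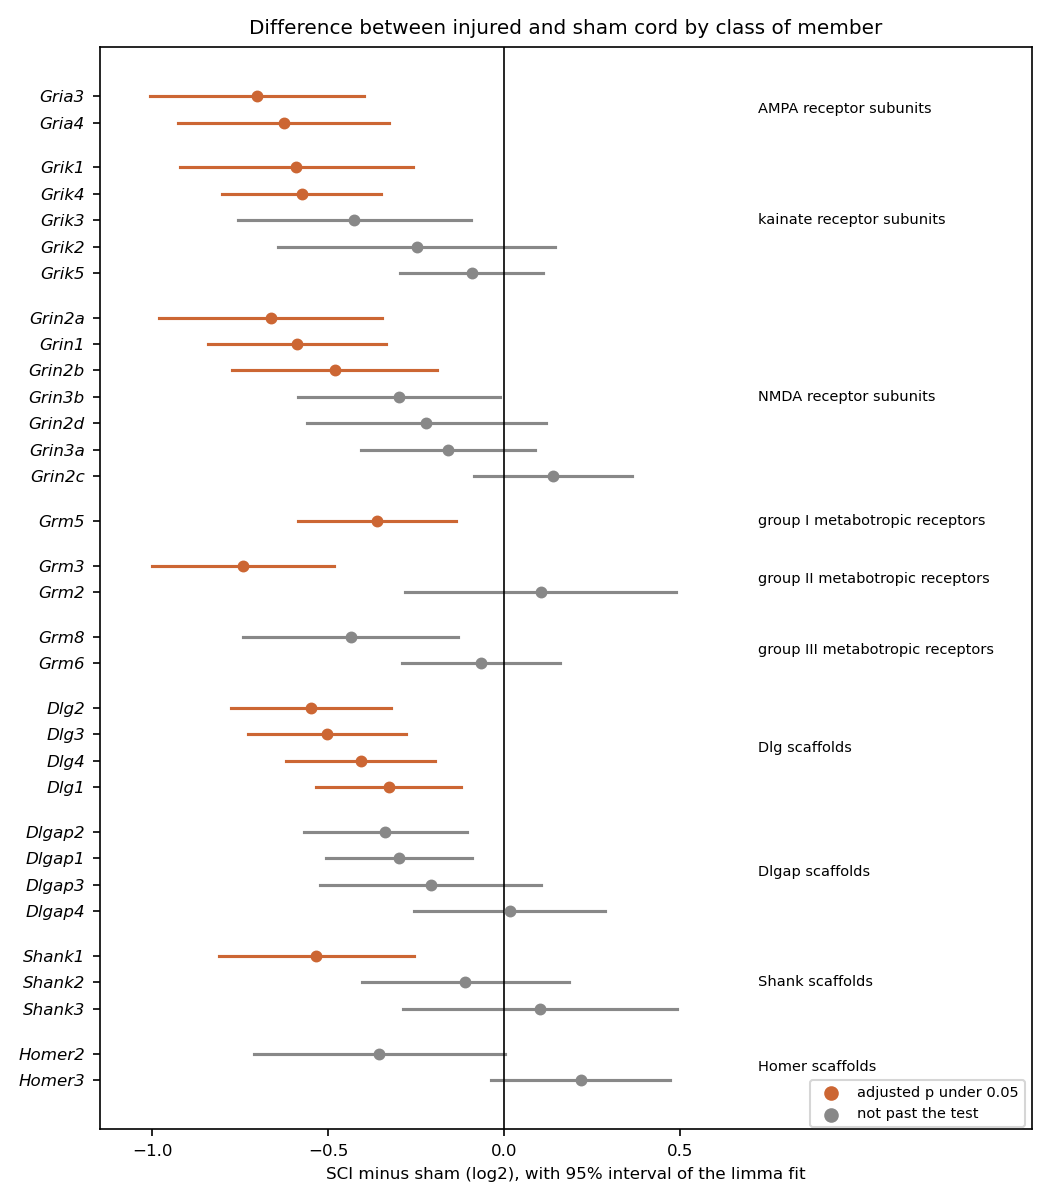
Difference between SCI and sham (horizontal axis, log2) for the 32 members by class, with the 95% interval of the limma fit (n = 4 arrays a group); orange marks an adjusted p under 0.05. All 14 orange points lie left of 0, from -0.74 for Grm3 to -0.33 for Dlg1, and the grey points reach 0.22 for Homer3.

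AMPA receptors carry the fast part of the excitatory current, and both subunits measured here fell. Gria3, the GluA3 subunit, read 6.71, 6.19, 6.53 and 6.85 on SCI 1 to SCI 4 and 7.19, 7.35, 7.34 and 7.21 on sham 1 to sham 4 (probe set 17875378, log2 signal). The groups were apart, and SCI 2 lay lowest. The means were 6.57 ± 0.29 (SD, n = 4) in SCI and 7.27 ± 0.08 (SD, n = 4) in sham, a difference of -0.70 (SE 0.14, 95% interval -1.01 to -0.40, limma adjusted p 0.00692), or 61.4% of the sham signal. Gria4, the subunit of fast-gating AMPA channels, read 7.12, 6.87, 7.30 and 7.51 in SCI and 7.76, 7.71, 7.88 and 7.95 in sham (probe set 17849268). Again every injured array lay below every sham array, with SCI 2 lowest and SCI 4 highest of the injured. Its difference was -0.63 (SE 0.14, 95% interval -0.93 to -0.33, limma adjusted p 0.0114), which left 64.7% of the sham signal.

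All 5 kainate receptor subunits were on the array. Grik4, a high-affinity subunit that works only together with Grik1, Grik2 or Grik3, read 5.77, 5.99, 5.74 and 5.99 in SCI and 6.52, 6.35, 6.55 and 6.38 in sham (probe set 17851559). The groups were apart and the spread was small in both (SD 0.14 and 0.10, n = 4 each). The difference was -0.58 (SE 0.10, 95% interval -0.80 to -0.35, limma adjusted p 0.00425), or 67.1% of sham. Grik1, known for its place on small sensory afferents and dorsal horn cells, read 4.46, 3.87, 3.91 and 3.90 in SCI and 4.50, 4.85, 4.69 and 4.46 in sham (probe set 17667701). SCI 1 reached the lowest sham array while the other 3 injured arrays lay together far below, so the groups touched. Its difference was -0.59 (SE 0.15, limma adjusted p 0.0240), and the call was lost on leaving out any array other than SCI 1, sham 1 or sham 4 (adjusted p up to 0.0730). The other kainate subunits did not pass: Grik3 differed by -0.43 (adjusted p 0.0882, past the test without sham 4), Grik2 by -0.25 (0.434) and Grik5, the second high-affinity subunit, by -0.09 (0.593). The pair of high-affinity subunits therefore had differences of -0.58 and -0.09, a contrast chosen after their values were seen and not tested.

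NMDA receptors are built from the obligatory subunit Grin1 with Grin2 or Grin3 subunits. Of the 7 genes, 3 fell and 0 rose. Grin1 read 6.61, 6.60, 6.81 and 7.04 in SCI and 7.32, 7.46, 7.36 and 7.28 in sham (probe set 17770228), with the groups apart. The difference was -0.59 (SE 0.11, 95% interval -0.84 to -0.34, limma adjusted p 0.0068), or 66.5% of sham. Grin2a, the subunit that predominates in many adult neurons, read 5.40, 4.97, 5.07 and 5.65 in SCI and 5.93, 5.85, 6.01 and 5.97 in sham (probe set 17643620). Its sham arrays were tight (SD 0.07, n = 4) and its SCI arrays wide (SD 0.31, n = 4), yet none crossed. The difference was -0.66 (SE 0.14, 95% interval -0.98 to -0.35, limma adjusted p 0.0112), or 63.1% of sham.

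Grin2b, the subunit with slower channel closing that is abundant in development, read 5.71, 5.42, 5.46 and 5.84 in SCI and 5.83, 6.24, 6.04 and 6.24 in sham (probe set 17795893). SCI 4 and sham 1 were level, so the groups overlapped. The difference was -0.48 (SE 0.13, limma adjusted p 0.0335), and it stayed past the test only when the array left out was SCI 4 or sham 1 (adjusted p up to 0.0972). The remaining NMDA subunits did not pass: Grin3b differed by -0.30 (adjusted p 0.168), Grin2d by -0.22 (0.416), Grin3a by -0.16 (0.420) and Grin2c by 0.14 (0.444, 95% interval -0.09 to 0.36). Grin2c, the one subunit of the 7 with a positive difference, is known from cerebellar granule cells and astrocytes.

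Among the 5 metabotropic receptors, 2 fell. Grm3, a group II receptor that lowers cyclic AMP and is found on both neurons and astrocytes, had the largest fall of the 32 members. It read 6.58, 6.37, 6.39 and 6.76 in SCI and 7.20, 7.33, 7.12 and 7.42 in sham (probe set 17781053), and the highest injured array stayed below the lowest sham array. The difference was -0.74 (SE 0.12, limma adjusted p 0.00223), or 59.8% of the sham signal. The mean of 7 astrocyte markers ran from 9.37 to 9.42 in SCI and from 9.11 to 9.20 in sham, but single astrocyte genes went both ways. Gfap and Gja1 rose, while Slc1a2, the main astrocyte glutamate transporter, fell by 0.39 (limma adjusted p 0.0319) and Slc7a10 by 0.55 (adjusted p 0.0194). Slc1a2 and Slc7a10 are outside the 7 markers and were named after their values were seen. Slc1a3, a marker and also an astrocyte glutamate transporter, differed by 0.31 without passing (limma adjusted p 0.0704). Its SCI arrays lay above all its sham arrays. The part of astrocytes in the fall of Grm3 was not tested.

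Grm5, the group I receptor that releases calcium from stores through Gq and is bound by Homer proteins, read 6.05, 6.10, 5.98 and 6.33 in SCI and 6.51, 6.45, 6.55 and 6.40 in sham (probe set 17618115). The gap between the groups was narrow, with SCI 4 just under sham 4. The difference was -0.36 (SE 0.10, 95% interval -0.59 to -0.14, limma adjusted p 0.0369), or 77.8% of sham, and the call was lost when any array but SCI 4 was left out (adjusted p up to 0.0966). Grm8, a presynaptic group III receptor, read 4.62, 4.18, 4.35 and 4.70 in SCI and 5.09, 4.98, 4.86 and 4.66 in sham (probe set 17790108), so that SCI 4 lay within the sham range. It missed the threshold at -0.44 (SE 0.14, limma adjusted p 0.0611) and passed it without SCI 4, or with array medians centred or quantiles equalised. Grm2 differed by 0.10 (adjusted p 0.774) and Grm6, best known from retinal bipolar cells, by -0.07 (0.755). Grm2 was also the dimmest member, at a mean of 2.59 in sham, where RMA compresses differences.

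All 4 Dlg scaffolds fell, and in all 4 the groups were apart. Dlg2 (PSD-93), the brightest of the 32 members, read 7.79, 7.69, 7.60 and 7.98 in SCI and 8.25, 8.27, 8.36 and 8.36 in sham (probe set 17618236). Its difference was -0.55 (SE 0.10, 95% interval -0.78 to -0.32, limma adjusted p 0.00549), or 68.3% of sham. Dlg3 (SAP102), which serves NMDA receptors early in development, read 5.07, 5.03, 5.05 and 4.87 in SCI and 5.69, 5.39, 5.54 and 5.42 in sham (probe set 17873109). Here SCI 4 was the lowest injured array, with the other 3 close together above it. The difference was -0.50 (SE 0.10, 95% interval -0.73 to -0.28, limma adjusted p 0.00789), or 70.5% of sham.

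Dlg4 (PSD-95), the core scaffold of mature excitatory synapses, read 6.91, 6.84, 6.84 and 7.05 in SCI and 7.44, 7.34, 7.27 and 7.21 in sham (probe set 17647672). Its difference was -0.41 (SE 0.10, 95% interval -0.62 to -0.20, limma adjusted p 0.0170), or 75.4% of sham, and the call was lost without SCI 2 (adjusted p 0.0535). Dlg1 (SAP97), which is also made outside neurons, read 7.35, 7.24, 7.24 and 7.37 in SCI and 7.57, 7.55, 7.61 and 7.79 in sham (probe set 17669887). Its fall was the smallest of the 14, -0.33 (SE 0.09, 95% interval -0.53 to -0.12, limma adjusted p 0.0393), or 79.7% of sham, and it was lost when any array but SCI 4 was left out (adjusted p up to 0.110).

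**Figure D2:**
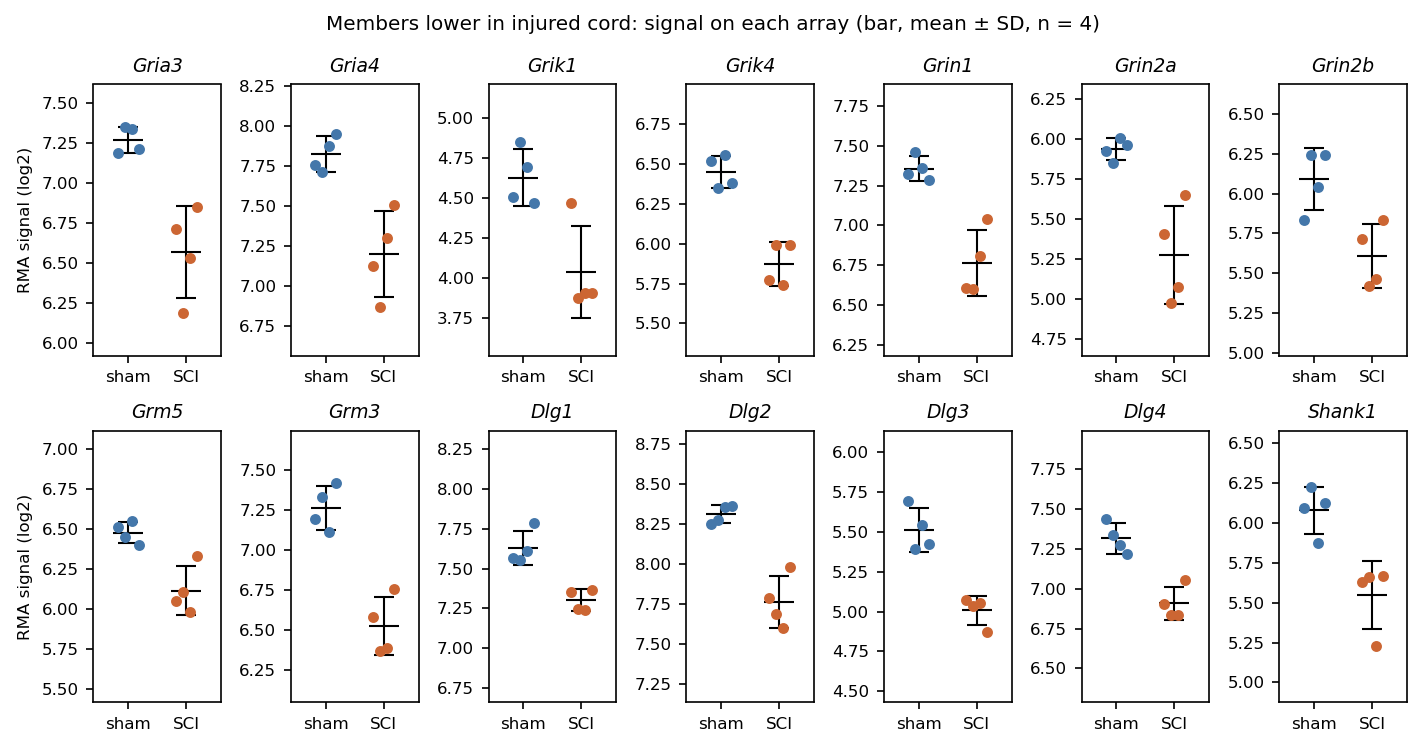
Log2 RMA signal of the 14 members lower in SCI, 1 point an array, with mean and SD (n = 4 a group); each panel's vertical axis spans 1.7 log2 units, centred on that gene. In 12 panels every sham point sits above every SCI point, the groups touch in Grik1 and Grin2b, and the SCI points of Gria3 and Grin2a are spread widest.

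The Dlgap, Shank and Homer families had fewer calls than Dlg. Their median signal was also lower, at 5.08, 4.59 and 5.44 beside 7.29 for Dlg, and the part of signal level was not tested. None of the 4 Dlgap genes passed, although 2 were close. Dlgap2 read 4.09, 4.16, 4.07 and 4.26 in SCI and 4.29, 4.67, 4.46 and 4.52 in sham (probe set 17712845), with the groups just apart. Its difference was -0.34 (SE 0.10, limma adjusted p 0.0561), and it passed when sham 1 was left out. Dlgap1 differed by -0.30 (SE 0.09, adjusted p 0.0598, past the test without SCI 4) with the groups apart as well, Dlgap3 by -0.21 (0.406) and Dlgap4 by 0.02 (0.957).

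Shank proteins form the deeper lattice of the postsynaptic density. Shank1 read 5.63, 5.66, 5.23 and 5.67 in SCI and 6.09, 6.22, 5.87 and 6.13 in sham (probe set 17616006). In both groups 1 array sat low, SCI 3 and sham 3, and the groups were apart. The difference was -0.53 (SE 0.13, 95% interval -0.81 to -0.26, limma adjusted p 0.0173), or 69.1% of sham. Shank2 differed by -0.11 (adjusted p 0.674) and Shank3 by 0.10 (0.785, 95% interval -0.29 to 0.49), so neither passed.

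Homer proteins link group I metabotropic receptors to calcium stores, and neither gene measured here passed. Homer2 read 5.41, 5.50, 5.03 and 4.89 in SCI and 5.81, 5.35, 5.37 and 5.71 in sham (probe set 17634541), with SCI 1 and SCI 2 inside the sham range. The difference was -0.35 (SE 0.16, limma adjusted p 0.191). Homer3 had the largest positive value of the 32 members, 0.22 (SE 0.12, 95% interval -0.04 to 0.47, adjusted p 0.270). It read 5.78, 5.71, 5.29 and 5.64 in SCI and 5.37, 5.43, 5.34 and 5.42 in sham, so that SCI 3 lay below all sham arrays and the other 3 injured arrays above them.

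By role, 9 of 19 receptor subunits fell (median difference -0.43) and 5 of 13 scaffolds (median -0.33), beside 7.06% of all genes called lower. The contrast between roles was not tested. Among receptors, 7 of 14 ionotropic subunits fell (median -0.45) and 2 of 5 metabotropic receptors (median -0.36). Within the scaffolds, the medians were -0.46 for Dlg, -0.25 for Dlgap, -0.11 for Shank and -0.07 for Homer. The share called also differed by signal level. Of the 21 members at or above the level of the median gene (4.74), 13 fell, beside 12.5% of all genes in that range, and of the 11 dimmer members 1 fell (Grik1), beside 1.57%.

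**Figure D3:**
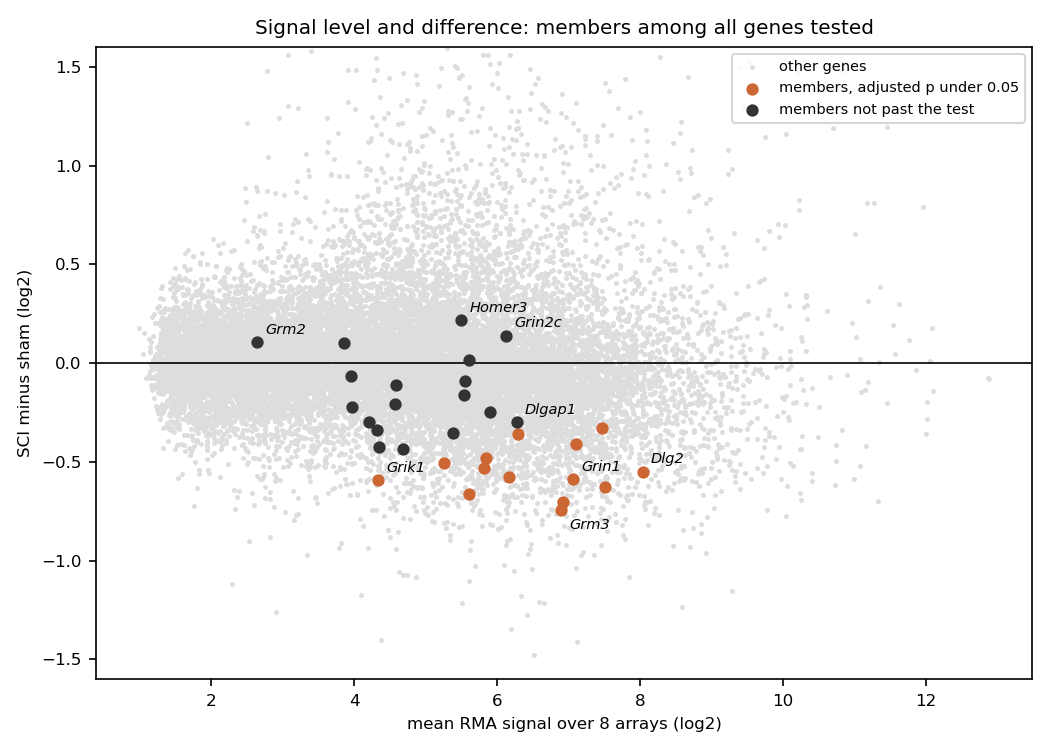
Mean log2 RMA signal over 8 arrays (horizontal) against SCI minus sham (vertical, log2) for all genes tested (grey) and the 32 members (orange, adjusted p under 0.05; black, not past the test); 81 genes beyond 1.6 in either direction are outside the axis. The orange points lie below 0 and, but for Grik1, at levels above 4.74, and the black points lie on both sides of 0, some of them lower than the highest orange points.

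To ask whether related members changed unequally, the log2 difference of a pair on each array was compared between groups by exact permutation (two-sided, 70 assignments), for which 0.0286 is the smallest p. Of 8 pairs listed, 4 had both members among the 32 tested. Between groups, Grin2a minus Grin2b differed by -0.18 (SE 0.12, exact permutation p 0.229, adjusted over the 4 pairs 0.305). Grm2 minus Grm3 differed by 0.85 (SE 0.21, exact permutation p 0.0571, adjusted 0.171), but Grm2 is dim and was not shown to be above background, so the size of this value is uncertain. Shank1 minus Shank3 differed by -0.63 (SE 0.26, exact permutation p 0.0857, adjusted 0.171) and Dlg4 minus Dlg1 by -0.08 (SE 0.10, exact permutation p 0.429, adjusted 0.429). Groups overlapped in all 4 pairs, and none passed.

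The injured arrays differed among themselves. Of the 14 members that fell, 12 had a larger SD in SCI than in sham, and of all 32 members 22 did. Within the SCI group, SCI 2 was the lowest array in 8 of the 14, SCI 3 in 5 and SCI 4 in 1, and SCI 4 was the highest in 11. Over all 32 members, SCI 2 was lowest in 14, and SCI 4 was highest in 17 and lowest in 5. The mean over all 32 members was 5.42, 5.31, 5.31 and 5.48 on SCI 1 to SCI 4 and 5.70, 5.74, 5.69 and 5.68 on sham 1 to sham 4. The mean of 12 pan-neuronal markers was 8.67, 8.50, 8.62 and 8.74 in SCI, lowest in SCI 2 and highest in SCI 4. The mean of 10 myeloid markers was 8.05, 8.25, 7.97 and 7.75 in SCI, highest in SCI 2 and lowest in SCI 4.

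Markers of other cell types moved with the groups, and their counts stand beside 7.06% of all genes called lower and 7.10% called higher. All 12 pan-neuronal markers fell (median -0.55; Ina -0.77, Nefm -0.62 and Syp -0.58), and their mean was 8.50 to 8.74 in SCI and 9.09 to 9.23 in sham. All 10 myeloid markers rose (median 1.72; Cd68 4.17, Fcer1g 2.00 and Tyrobp 1.89), and their mean was 7.75 to 8.25 in SCI beside 6.07 to 6.39 in sham. Of 8 oligodendrocyte markers 7 fell (median -0.70; Ugt8 -1.16, Mog -0.78 and Mbp -0.70), with a mean of 9.13 to 9.42 beside 9.90 to 9.98. Mbp has more than 1 probe set: their mean differed by -0.39, and the dimmest by -0.07 without passing (limma adjusted p 0.740). Of 7 astrocyte markers 2 rose, Gfap by 0.81 and Gja1 by 0.59. Slc1a3 (0.31, limma adjusted p 0.0704) and Aqp4 (0.20, adjusted p 0.249) did not pass, with the SCI arrays wholly above sham in both. Aldoc (-0.15, groups overlapping) and S100b (-0.14, SCI wholly below sham) had negative differences and did not pass. Over the 7 markers, the difference was positive in 5 and negative in 2. Schwann cell markers (3 of 4, with Scn7a, Pmp22 and Ncmap) and fibroblast markers (3 of 6, Col1a1, Col1a2 and Col3a1) rose, with means of 6.91 to 7.45 beside 6.24 to 6.51 and of 7.31 to 7.85 beside 6.49 to 7.01. Of 6 oligodendrocyte precursor markers, Lhfpl3 and Pdgfra rose and Olig1 fell. None of 3 skeletal muscle, 5 dorsal root ganglion or 1 blood cell markers tested passed. No defining marker can be called absent, since no detection calls were used. The part of these shifts in the fall of the members was not tested.

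**Figure D4:**
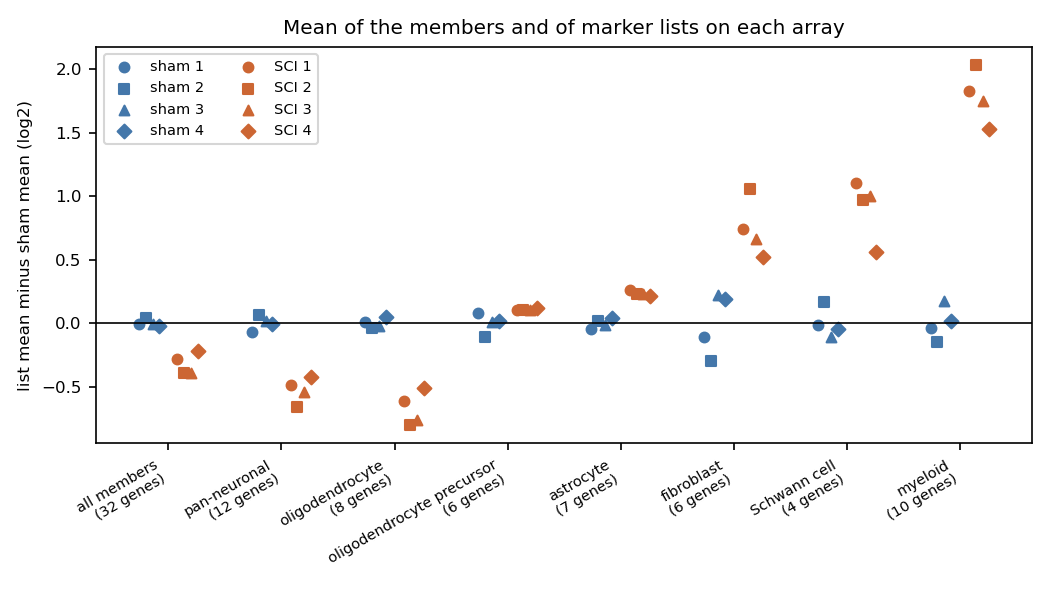
Mean log2 signal of the 32 members and of 7 marker lists on each array, shown as the difference from the sham mean of the same list (vertical axis, log2); marker shape gives the array. The members and the pan-neuronal and oligodendrocyte lists lie below 0 on all 4 SCI arrays and the myeloid, Schwann cell, fibroblast and astrocyte lists above, with SCI 4 nearest to sham in each of these 7 sets.

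Set against the mean of the 12 pan-neuronal markers on the same array, which differed by -0.53, the members fell into a range around the neuronal signal. This is a description with no test. It shifts the same differences by 1 constant, so the order of members and the sign for those that did not pass are largely set by the calls and show nothing further about them. For the 14 members that fell, the relative difference ran from -0.21 (Grm3) to 0.20 (Dlg1), was negative in 9, and the groups overlapped in all 14. For the 18 others it ran from 0.09 to 0.75 and was positive in all, with the SCI arrays wholly above sham in 8: Grik5, Grin2c, Grin3a, Grm6, Dlgap1, Dlgap4, Shank2 and Homer3. The same count over all genes was not made on this scale. The median gene differed by -0.01 before the shift, so an unchanged gene would also have a positive relative difference. The count of 8 therefore says nothing particular about these members. Relative to the neuronal markers, the value was 0.75 for Homer3, 0.67 for Grin2c, 0.54 for Dlgap4 and 0.44 for Grik5.

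Proteins that work beside the receptors were read from lists chosen by function, with earlier results of these data known. Their counts stand beside 7.06% of all genes called lower and 7.10% called higher. At or above the level of the median gene, 12.5% were called lower. AMPA and kainate receptors need auxiliary subunits for surface delivery and gating, and 5 of 14 of these fell and 0 rose (median -0.34). The 3 with the smallest p were Neto1, a kainate receptor auxiliary (-0.59, SE 0.09, limma adjusted p 0.00167), its relative Neto2 (-0.55, SE 0.10, adjusted p 0.00476), and Cacng2, or stargazin (-0.64, SE 0.14, adjusted p 0.00986). Of the trafficking and anchoring proteins, 4 of 18 fell and 0 rose (median -0.29). Nsf, the ATPase that recycles vesicle fusion complexes and binds AMPA receptors, fell by 0.67 (SE 0.09, adjusted p 0.00121). Tanc1 fell by 0.52 (adjusted p 0.0164) and Tanc2 by 0.35 (adjusted p 0.0311), both scaffolds that bind PSD-95. Leaving out 1 array gave 2 to 4 calls in this list: 2 without SCI 2, sham 2 or sham 4. Tanc1 was lost without sham 4, and Tanc2 without any array but SCI 3 or sham 1.

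Downstream signalling genes gave fewer calls. Of 12 genes for calcium and G protein signalling, 2 fell and 0 rose (median -0.17). Of these 12, 11 were at or above the level of the median gene. In that range 12.5% of all genes fell, so 2 of 12 is near the share for all genes. Camk2b, a subunit of the calcium-dependent kinase of the postsynaptic density, fell by 0.49 (SE 0.10, limma adjusted p 0.0100). Plcb4, a phospholipase downstream of group I receptors, fell by 0.34 (adjusted p 0.0425), a call lost when any array but sham 1 was left out. Ppp3ca, a calcineurin subunit, differed by -0.33 without passing (adjusted p 0.0799).

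Among genes for synaptic adhesion and extracellular clustering, 6 of 19 fell and 1 rose (median -0.41), beside 7.06% of all genes lower and 7.10% higher. Leaving out 1 array gave 4 to 9 lower calls in this list: 4 without SCI 2, SCI 3, sham 2, sham 3 or sham 4. The neuronal pentraxin Nptx1, which gathers AMPA receptors from outside, fell by 0.59 (SE 0.12, limma adjusted p 0.0087), and Cbln2, a secreted synapse organiser that binds neurexins, fell by 0.71 (SE 0.15, adjusted p 0.00883). C1ql1, a secreted C1q-like protein that binds an adhesion GPCR, rose by 0.52 (SE 0.10, adjusted p 0.00696). Of 11 genes for the supply and uptake of glutamate and its co-agonists, 5 fell and 1 rose (median -0.17), beside the same shares of all genes. Slc17a6, the vesicular glutamate transporter of spinal excitatory neurons, fell by 1.04 (SE 0.14, adjusted p 0.00105), a larger change than that of any receptor subunit measured here. The glycine transporter Slc6a9 fell by 0.55 (SE 0.10, adjusted p 0.00372). Slc7a11, the cystine and glutamate exchanger, rose by 0.78 (SE 0.15, adjusted p 0.00693). The supply list had 2 lower calls without SCI 2 or sham 2, and 3 without SCI 1, sham 3 or sham 4.

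Without SCI 3, sham 1 and sham 2, 1.56% of all genes were called lower and 3.1% higher. The auxiliary, trafficking, adhesion and supply lists each had 1 call in that fit, lower in every case (Neto1, Nsf, Cbln2 and Slc17a6). The signalling list had 0. C1ql1 and Slc7a11 were then at 0.46 and 0.76 with limma adjusted p-values of 0.113 and 0.0679. In that fit 2 of 12 pan-neuronal and 5 of 8 oligodendrocyte markers were lower, and 9 of 10 myeloid, 3 of 4 Schwann cell, 1 of 7 astrocyte and 1 of 6 fibroblast markers were higher. None of the 6 oligodendrocyte precursor markers passed. With the second number of the sample title as covariate, 2.99% of all genes were called lower and 4.48% higher. Then 4 of 12 pan-neuronal and 7 of 8 oligodendrocyte markers were lower. Of the other markers, 9 of 10 myeloid, 3 of 4 Schwann cell, 2 of 7 astrocyte and 3 of 6 fibroblast were higher. Lower calls numbered 2 in the auxiliary list, 1 each in the trafficking, signalling and adhesion lists, and 2 in the supply list. Cacng2, Tanc1, Tanc2, Plcb4 and Nptx1 were among the calls lost.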

How the data were processed

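Total RNA of 8 pieces of thoracic cord was hybridised to 1-colour arrays, 4 SCI and 4 sham. The deposited values are log2 signals from RMA, run in Affymetrix Expression Console, per the submitters' processing notes. RMA (robust multi-array average) subtracts background, equalises the distributions of arrays and gives 1 value per probe set. No versions, settings or genome build are given in the sources used here. No count or read depth applies: the number of arrays, 4 a group, limits the precision.

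Of 36685 probe sets, the platform annotation gave 1 symbol to 18511, several to 575 and none here to 17599. Where several probe sets named a gene (291 genes), the one with the highest mean was kept, which left 18166 genes. All 32 members matched a RefSeq gene ID, and 0 symbols changed. Members of 1 family may share probe signal, and no probe sequences were used here to test it.

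SCI and sham were compared over all 18166 genes by lmFit and eBayes without covariates (limma 3.58.1, R 4.3.3), Benjamini-Hochberg adjustment and calls at an adjusted p under 0.05. The script was tested on simulated data. Pairs of members used exact permutation tests. Promoters came from the RefSeq table of GRCr8. Protein sequence features were not analysed here, so that planned description was not run.

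The members, function lists and marker lists were chosen with earlier results of these data known. Values on every array are given for members past the test and for the member with the smallest p in each class, and the 3 genes with the smallest p are named from each other list. Genes outside this rule (the arrays of Homer3, the contrast of Grik4 with Grik5, Slc1a2, Slc7a10, Aqp4, Aldoc and S100b, and the 4 genes named relative to neuronal markers) were picked after their values were seen. Alternatives were array medians centred, quantile normalization, the mean or the lowest probe set of a gene, all probe sets, dim genes left out, a trended robust variance, array weights, the second number of the sample title as covariate, each array left out, and, added after seeing the data, 3 arrays left out.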

Additional observations from a re-analysis of the deposited data

Results flagged for a closer look

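In groups of 4 arrays, a single array stood far from the other 3 (Dixon's ratio above its 95% critical value) in 9 of 158 groups examined, 4 of them among the 64 groups of members, where chance gives about 1 in 20. Grik1 read 4.46 on SCI 1, beside 3.91 on the nearest injured array. Shank1 read 5.23 on SCI 3, beside 5.63 on the nearest. Grin3a read 5.46 on sham 3, beside 5.66, and Grin3b read 4.64 on sham 2, beside 4.29. The difference Grm2 minus Grm3 was -4.16 on sham 3, beside -4.81 on the nearest sham array. The kainate auxiliary gene Neto2 read 6.07 on sham 3, beside 6.14. Among markers, Pmp22 read 9.98 on sham 2, beside 9.78, Acta1 read 2.74 on SCI 3, beside 4.01, and Slc4a1 read 5.28 on SCI 2, beside 3.95.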

How the results depend on the processing

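The count of members lower in SCI was 14. It was 14 to 17 with array medians centred, quantile normalization, the mean or the lowest probe set, dim genes left out, a trended robust variance or array weights. It was 6 with the second number of the sample title as covariate, a number that is higher in most sham than SCI samples (Gria3, Grik4, Grm3, Dlg2, Dlg3 and Dlg4 passed), and 8 with all 36685 probe sets fitted, where more features are adjusted for. Leaving out 1 array gave 9 to 15 members, and leaving out SCI 3, sham 1 and sham 2 gave 0, with 5 arrays remaining. Over all genes, 2572 were called, 1356 with the covariate, 1703 to 2540 with 1 array left out (the fewest without SCI 2), and 847 without the 3 arrays. The share of calls that were higher was 50.2%, and 42% with medians centred, 43% with dim genes left out, 60% with the covariate and 66.5% without the 3 arrays. The count of members higher in SCI was 0 in all these fits, and the median over members lay between -0.41 and -0.29. The cause of these differences was not tested. No member that passed changed sign. Members not past the test have wide intervals, so a missing call does not show that a gene was alike in both groups, and dim members such as Grm2 and Shank3 are least informative.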
